A study of Mus musculus with 60 samples.

Results

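Interferon-induced GTPases are proteins that cells make in response to interferons and use against viruses, intracellular bacteria and parasites. The genes described here were chosen by symbol, with no measured value in the rule but with earlier results of these data known. The choice held 10 of the 22869 genes of the deposited count table. They were 5 guanylate-binding protein (GBP) genes (Gbp2, Gbp3, Gbp5, Gbp6 and Gbp7), 4 immunity-related GTPase (IRG) genes (Igtp, Irgm1, Irgm2 and Iigp1) and Mx1. All 10 were found and all 10 passed the filter on low counts in every test.

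The study measured polyadenylated RNA of microglia from C57BL/6N mice by stranded RNA sequencing in 60 libraries. At postnatal day 60 (P60), 13 libraries came from mice given LPS (lipopolysaccharide, the outer membrane glycolipid of Gram-negative bacteria, sensed through Toll-like receptor signalling), 7 titled male and 6 titled female. They were compared with 12 libraries from saline-treated mice of the same age, 5 male and 7 female. The time course had untreated mice at embryonic day 18 (E18; 4 male and 3 female libraries), postnatal day 4 (P4; 4 and 4) and postnatal day 14 (P14; 10 and 10), and ended with the P60 saline libraries. The labels used here give neither the dose, route and duration of LPS nor the way the microglia were isolated.

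GBPs assemble on microbes and on the vacuoles that hold them, and some of them feed into inflammasome activation. Among the IRG proteins, the regulators Irgm1, Irgm2 and Igtp (also called Irgm3) sit on the host's own membranes and hold effectors such as Iigp1 (Irga6) inactive until the effectors load onto a vacuole. Mx1 blocks influenza viruses in mice that carry an intact gene; C57BL/6 mice carry a disrupted one, and RefSeq lists it as a transcribed pseudogene, so its counts measure a transcript and not a working protein. Genes induced by type I interferons often carry an interferon-stimulated response element (ISRE) in their promoters, and genes induced by interferon-gamma often carry a gamma-activated site (GAS).

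Promoter windows were read from RefSeq on GRCm38.p6, a later build than the mm9 named for the deposited counts, and cover 250 bases before and 50 bases after the annotated start of the gene. Windows were read for 7 of the 10 members. The windows of Gbp5 and Gbp2, with 2 of the largest responses to LPS, and of Igtp and Irgm2, with the 2 smallest, are shown 5′ to 3′ on the strand of the gene. Capitals mark matches on either strand to the ISRE core (GAAA, any 2 bases, GAAA) or to GAS (TTC, any 3 bases, GAA).
Gbp5, chr3:142496684-142496983, plus strand: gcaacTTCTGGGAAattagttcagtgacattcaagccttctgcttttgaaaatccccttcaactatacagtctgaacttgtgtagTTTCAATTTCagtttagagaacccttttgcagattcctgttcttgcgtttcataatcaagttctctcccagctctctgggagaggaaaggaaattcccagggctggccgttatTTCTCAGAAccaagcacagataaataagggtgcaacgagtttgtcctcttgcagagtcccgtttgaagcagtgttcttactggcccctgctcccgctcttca
Gbp2, chr3:142620413-142620712, plus strand: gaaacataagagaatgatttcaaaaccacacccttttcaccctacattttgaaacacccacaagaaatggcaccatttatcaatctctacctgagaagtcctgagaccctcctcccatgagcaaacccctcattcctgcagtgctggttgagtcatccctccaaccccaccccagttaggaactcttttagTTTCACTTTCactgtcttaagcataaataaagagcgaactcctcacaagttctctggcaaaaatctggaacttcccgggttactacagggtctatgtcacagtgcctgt
Igtp, chr11:58199306-58199605, plus strand: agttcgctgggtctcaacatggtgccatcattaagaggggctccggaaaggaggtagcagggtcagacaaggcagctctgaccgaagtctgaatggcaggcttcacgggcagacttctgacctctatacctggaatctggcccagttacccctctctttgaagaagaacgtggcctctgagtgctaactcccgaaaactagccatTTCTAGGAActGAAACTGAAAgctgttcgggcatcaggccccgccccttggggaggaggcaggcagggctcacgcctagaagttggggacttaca
Irgm2, chr11:58214727-58215026, plus strand: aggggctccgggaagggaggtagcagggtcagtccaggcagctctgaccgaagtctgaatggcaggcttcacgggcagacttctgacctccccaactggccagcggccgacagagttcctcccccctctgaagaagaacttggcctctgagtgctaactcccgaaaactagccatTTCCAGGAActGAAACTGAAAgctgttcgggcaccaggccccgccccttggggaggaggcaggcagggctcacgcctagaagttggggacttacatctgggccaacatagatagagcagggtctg

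All 7 members whose window was read held an ISRE core in it, and 4 of them (Gbp5, Gbp7, Igtp and Irgm2) also held a GAS match. Iigp1, with the largest response to LPS, was left out by its chromosome and is not among the 7, so this count says nothing about it. Gbp6 and Mx1 had no window in the reference. Of all 32851 windows in the table, 3.44% held the ISRE core, 8.30% held GAS and 0.454% held both. The ISRE core of Gbp2 began 59 bases before the start and that of Gbp7 53 bases before it, while that of Gbp5 lay farther out at 165 bases, with GAS matches at 245 and 52 bases. Irgm1 (chr11:48871371-48871670, minus strand) and Gbp3 (chr3:142559794-142560093, plus strand) each held 2 overlapping ISRE cores, beginning 30 and 24 bases before the start in Irgm1 and 45 and 39 bases before it in Gbp3. Gbp3 had a second annotated start whose window (chr3:142560106-142560405) held neither motif. In Igtp and Irgm2 the GAS match and the ISRE core stood 2 bases apart, and these 2 windows shared an identical run of 61 bases. A match describes letters in a window and does not show that a factor binds there.

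**Figure D1:**
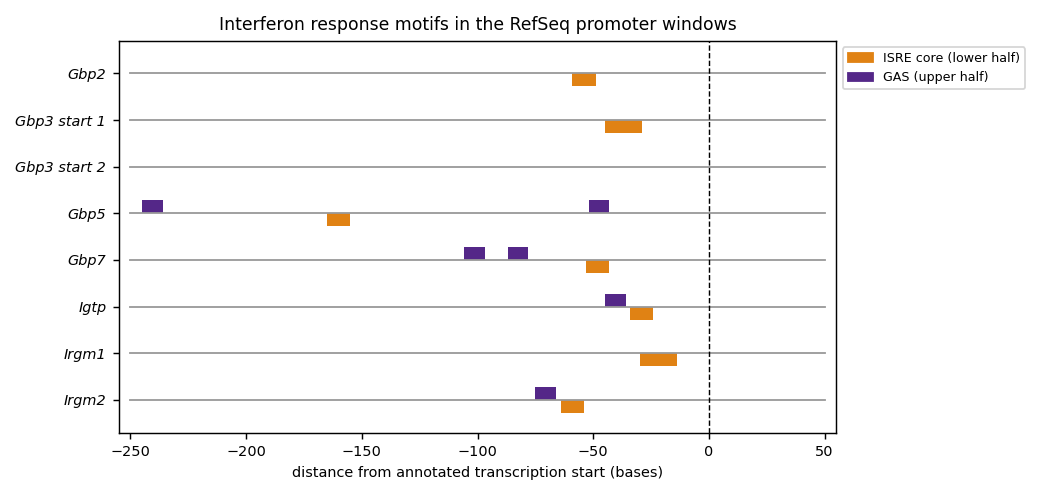
Positions of ISRE core matches (orange, below the line) and GAS matches (purple, above the line) in the 300-base promoter windows of 7 members, with distance from the annotated start in bases on the x axis and 1 line per window. All 7 genes have at least 1 ISRE match, within 165 bases before the start, and only the second start of Gbp3 has none.

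Library totals ran between 802016 and 3497454 counts, with a median of 970080 in the P60 LPS libraries and 2092799 in the P60 saline libraries. Levels are given as CPM, the gene's count scaled to a library total of 1000000. Members near 1 CPM, such as Gbp6 at E18, therefore rest on few counts. All 9 microglial markers were detected in every group, with a summed level of 17889 to 32306 CPM in P60 LPS libraries, 21061 to 43254 CPM in P60 saline libraries and 3043 to 6313 CPM at E18. One library titled male at E18 (replicate 4) had no counts from Y-linked genes, and it and 2 others (male E18 replicate 3 and female P60 saline replicate 6) carried more than 10% of their counts in the choroid plexus gene Ttr. For 10 libraries the sex in the title and the sex in the characteristics differ, and sexes below follow the titles. Among these 10, libraries titled female had 0 to 3 counts from Y-linked genes. Those titled male had 440 to 889, apart from male E18 replicate 4. Y-linked counts thus followed the title in all of them but that library. Among libraries whose labels agree, female P60 saline replicates 1 and 3 and female P14 replicate 10 carried 31, 106 and 56 Y-linked counts. Each date written in the sample descriptions belongs to a single stage and treatment, so stage or treatment and date cannot be told apart. Separate animals are not named in the labels, so p-values measure the spread between libraries.

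LPS at P60 raised all 10 members. The summed level of the 10 genes was 1137 CPM at the lowest, 2619 at the median and 3789 at the highest over the 13 LPS libraries, against 290.1, 399 and 543 CPM over the 12 saline libraries. The groups did not overlap. Here and below, overlap of ranges was counted for the members only, so its share over all genes is not given. In edgeR's quasi-likelihood test with Benjamini-Hochberg adjustment, all 10 members rose at an adjusted p under 0.05, against a background of 10.5% of the 10538 genes tested that rose and 3.95% that fell. The median log2 fold change of the members was 3.04, against -0.07 over all genes tested.

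Among the GBPs, Gbp5 and Gbp2 reached the highest levels. Gbp5, which in mice promotes assembly of the NLRP3 inflammasome, had 345, 586 and 1142 CPM (lowest, median and highest library) under LPS, against 21.2, 39.2 and 51.6 CPM under saline. Gbp2, which coats the vacuoles of the parasite Toxoplasma in mouse cells, had 212, 463 and 960 CPM under LPS, against 18.5, 24.7 and 42.4 CPM under saline. For both genes every LPS library lay above every saline library. The log2 fold change was 4.18 ± 0.22 for Gbp5 (SE; adjusted p = 4.74e-14) and 4.16 ± 0.24 for Gbp2 (adjusted p = 6.64e-13, edgeR).

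Gbp3, which neighbours Gbp2 and Gbp5 on chromosome 3, had 81.2, 201 and 353 CPM under LPS, against 25.7, 40.5 and 59.2 CPM under saline. Gbp6, from the second GBP cluster on chromosome 5, had 45.2, 79.0 and 163 CPM under LPS, against 2.17, 5.31 and 11.2 CPM under saline. Neither gene had a saline library within the LPS range. The rise was 2.37 ± 0.20 on the log2 scale for Gbp3 (adjusted p = 3.06e-10, edgeR) and 4.18 ± 0.26 for Gbp6 (adjusted p = 1.42e-12, edgeR). The Gbp6 value is uncertain as to the gene, because 90.2% of the 50-base stretches of its transcript also occur in other transcripts of the reference, among them Gbp4 and Gbp10. Gbp7, which in mice helps to bring NADPH oxidase subunits to vacuoles, had 135.7, 269.8 and 586 CPM under LPS, against 41.1, 92.6 and 136.4 CPM under saline. Its ranges met at the edge, with 12 of 13 LPS libraries above the highest saline library, and its fold change was the smallest of the GBP members at 1.61 ± 0.19 (log2; adjusted p = 2.30e-07, edgeR).

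The 3 IRG regulators rose less than most GBPs. Irgm1, which is needed for resistance to several intracellular pathogens in mice, had 73.0, 204 and 269.6 CPM under LPS, against 36.9, 49.8 and 97.9 CPM under saline. Igtp had 61.7, 127 and 194 CPM under LPS, against 37.3, 51.8 and 85.4 CPM under saline. Irgm2 had 72.9, 134 and 163 CPM under LPS, against 46.1, 54.8 and 84.4 CPM under saline. The ranges of all 3 overlapped, with 12, 11 and 12 of 13 LPS libraries above the highest saline library for Irgm1, Igtp and Irgm2. The log2 fold changes were 1.92 ± 0.19 for Irgm1, 1.30 ± 0.17 for Igtp and 1.11 ± 0.14 for Irgm2, and the largest adjusted p of the 3 was 1.08e-06 (edgeR).

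The effector Iigp1 rose further than the regulators. Iigp1 had 45.2, 265 and 449.7 CPM under LPS, against 6.05, 9.50 and 28.7 CPM under saline, with no overlap. Its log2 fold change of 4.52 ± 0.35 was the largest of the 10 (adjusted p = 1.35e-10, edgeR). Mx1 had 20.6, 141 and 190.3 CPM under LPS, against 4.63, 8.27 and 31.9 CPM under saline, and 12 of 13 LPS libraries exceeded the highest saline library. The log2 fold change of the Mx1 transcript was 3.70 ± 0.29 (adjusted p = 1.44e-10, edgeR).

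**Figure D2:**
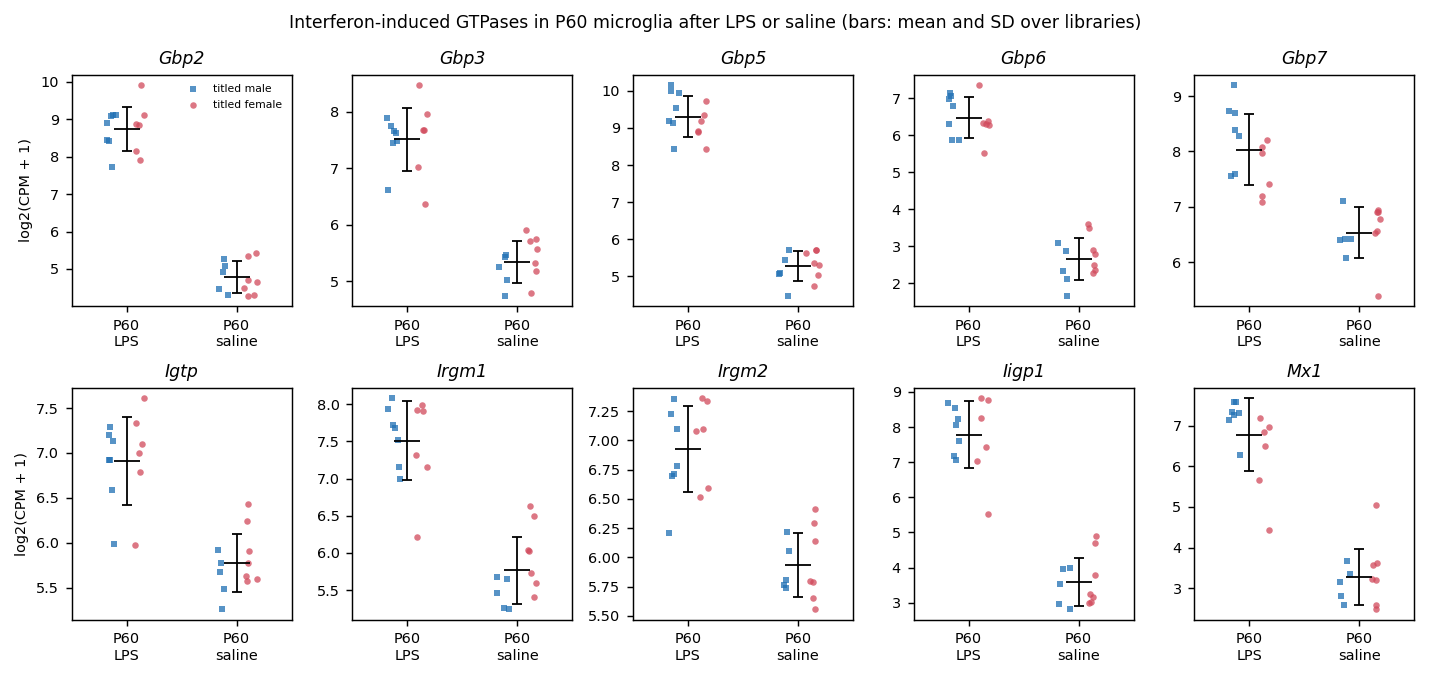
Level of each member on the log2(CPM + 1) scale in every P60 library, LPS on the left and saline on the right of each panel; blue squares are libraries titled male and red circles libraries titled female, and bars show the mean and SD. LPS and saline libraries do not overlap for Gbp2, Gbp3, Gbp5, Gbp6 and Iigp1. Between 11 and 12 of the 13 LPS libraries lie above the highest saline library for the other genes. Overlap was not counted over all genes.

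The unequal rises changed the make-up of the group. The 3 IRG regulators together made up 12.98% to 22.5% of the members' summed CPM in LPS libraries (median 18.4%), against 35.4% to 51.5% in saline libraries (median 42.4%). The 5 GBPs made up 61.0% to 74.4% under LPS (median 68.1%), against 41.4% to 58.5% under saline (median 52.2%). The regulator and GBP shares did not overlap between the groups, while the Iigp1 share (median 9.89% under LPS, against 2.67% under saline) and the Mx1 share (median 5.03% under LPS, against 2.23% under saline) did. Per kilobase of transcript, the order of median levels under LPS was Gbp5 (192 CPM per kb), Gbp2 (184), Irgm1 (90.2), Iigp1 (85.0), Gbp3 (76.4), Igtp (63.0), Gbp7 (48.1), Mx1 (41.6), Irgm2 (38.8) and Gbp6 (30.3). Under saline Igtp (25.6 CPM per kb) and Irgm1 (22.0) came first and Mx1 (2.44) and Gbp6 (2.04) last. The ranges of neighbours in each order overlapped.

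Single LPS libraries were high or low for many members at once. Female LPS replicate 3 was the lowest of the 13 for 8 of the 10 genes and summed to 1137 CPM. In that library Igtp stood 0.17 and Irgm1 0.38 above the saline mean on the log2 scale, while Gbp5 stood 3.15 above it. Male LPS replicate 6 was the lowest for the other 2 members and summed to 1374 CPM. Male replicate 3 (3789 CPM) and female replicate 6 (3716 CPM) were each the highest for 4 members. Across the 13 libraries the highest value was 9.94 times the lowest for Iigp1 and 9.26 times for Mx1, against 2.24 times for Irgm2. All 10 members passed the LPS test without any 1 of these libraries.

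**Figure D3:**
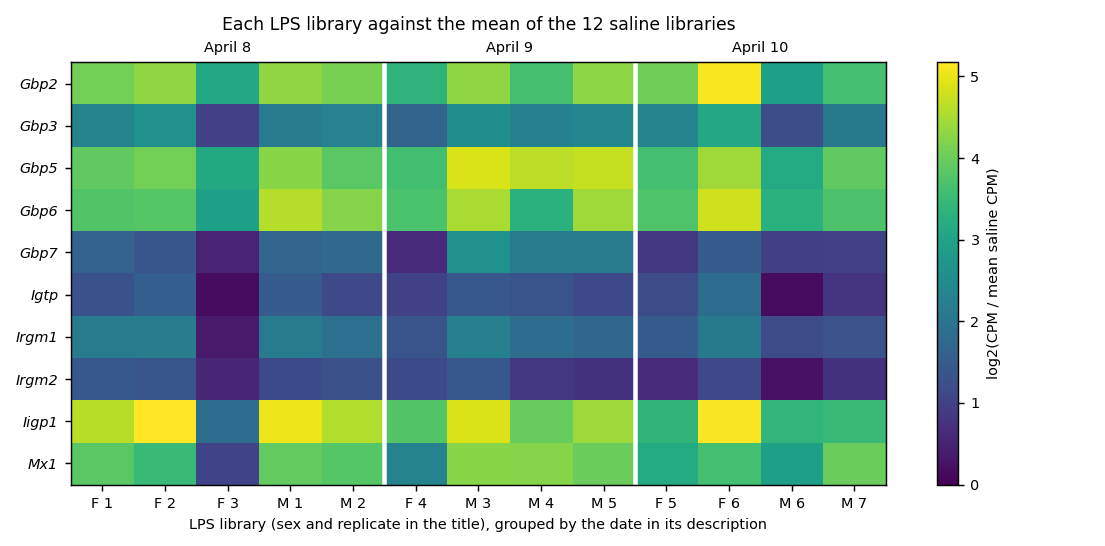
Heat map of the 10 members (rows) in the 13 LPS libraries (columns, grouped by the date in the sample description), coloured by log2 of the library's CPM over the mean saline CPM. Low values are dark and high values bright. Female replicate 3 is the darkest column, with 0.17 for Igtp and 3.15 for Gbp5.

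The LPS libraries carried 3 dates, April 8 (5 libraries), April 9 (4) and April 10 (4). Median Gbp5 was 586, 1002 and 533 CPM on the 3 dates, median Gbp7 295, 418 and 190 CPM, and median Irgm2 149, 123 and 99.2 CPM. None of the 10 members differed between the dates in edgeR's test with sex as covariate, at an adjusted p between 0.52 and 0.99, against a background of 0.881% of genes. None reached an unadjusted p under 0.05 either. Of the interferon-gamma type targets listed with the pathway genes, 2 of 9 differed by date (Nos2 and Ifi30, named after their values were seen), as did 1 of 5 neutrophil markers (Ltf). With any 1 date left out, all 10 members still passed the LPS test. The summed level of 7 neutrophil markers had medians of 685, 3429 and 499 CPM on the same dates.

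Markers of other cells moved with LPS. Of the neutrophil list, all 5 markers tested rose, and the summed level of the 7 was 338, 685 and 5442 CPM (lowest, median and highest) under LPS, against 17.5, 103 and 401 CPM under saline. Of 4 monocyte markers, 3 rose, with a sum of 58.7, 79.5 and 428 CPM under LPS, against 14.1, 24.1 and 71.1 CPM under saline, while Ccr2, the receptor that brings monocytes into tissue, had a log2 difference of -0.29 ± 0.29. No marker in either list was at 0 in either group. Of 8 lymphocyte markers, only the T cell marker Cd3e had no counts in any LPS library. Their sum was 3.55, 15.5 and 32.1 CPM under LPS, against 5.13, 11.1 and 34.9 CPM under saline. Of 9 microglial markers 3 fell and none rose, and 4 of 6 endothelial markers fell and 1 rose. The single lymphocyte marker and the 4 border macrophage and 4 choroid plexus markers tested did not pass, 1 of 3 astrocyte markers rose, 2 of 3 oligodendrocyte markers and the 1 neuronal marker tested fell, and no red blood cell marker was tested. The part of other cells in the rise of the members was not tested. In bulk samples, fewer cells of a type and less RNA per cell cannot be told apart.

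Other genes of the interferon pathway were counted from lists, with 10.5% of all genes tested rising under LPS and 3.95% falling. Of 12 further interferon-inducible GTPases, 8 were tested and all 8 rose under LPS, with a median log2 fold change of 2.83 against -0.07 over all genes. They included the IRG gene Ifi47 (4.06 ± 0.28), Gbp4 (3.26 ± 0.24), Gm12250, which encodes the IRG protein Irgb10 (2.76 ± 0.29), and Mx2, the second mouse Mx gene (2.48 ± 0.19). The near-identical copies Tgtp1 and Tgtp2 both had a mean of 78.4 CPM under LPS and are not separate results within the list. Among 14 interferon receptors, kinases and STAT and IRF factors, 8 rose and none fell, with a median of 0.75. The transcription factor Irf7 (2.61 ± 0.29), Stat2 (1.56 ± 0.17), the kinase Jak2 (1.22 ± 0.14) and Irf1 (1.12 ± 0.11) rose. The receptor chains did not pass, with log2 differences of 0.18 ± 0.11 for Ifnar1, -0.02 ± 0.10 for Ifnar2, 0.03 ± 0.13 for Ifngr1 and -0.07 ± 0.13 for Ifngr2. Of 6 feedback inhibitors tested, 4 rose (median 1.29), namely the ubiquitin-like modifier Isg15 (3.56 ± 0.30), its protease Usp18 (3.51 ± 0.31), the cytokine signalling suppressor Socs3 (1.83 ± 0.22) and the phosphatase Ptpn2 (0.74 ± 0.16).

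The interferons themselves were barely counted. Of 8 ligand genes listed, 6 were among the genes counted, and none of these passed the filter. Ifnb1 had 45 counts in all over the LPS libraries and 54 over the deeper saline libraries, or 3.28 CPM pooled under LPS and 2.40 CPM under saline. Ifng had 12 counts under LPS and 13 under saline (0.876 and 0.577 CPM), and Ifna1, Ifna2, Ifna4 and Ifna5 had 0 in every library. Of 12 inflammasome and autophagy genes linked to GBPs, 2 rose, 1 fell and 9 did not pass (median 0.16). Over all genes tested 10.5% rose and 3.95% fell, so these counts lay near the background. Casp4, the caspase that senses cytosolic LPS, rose by 2.03 ± 0.23 and the DNA sensor Aim2 by 0.38 ± 0.11, and the adaptor Pycard fell by 0.50 ± 0.16. Nlrp3 had a log2 difference of 0.70 ± 0.25 (adjusted p = 0.0544, edgeR). Of 9 other interferon-gamma type targets tested, 6 rose (median 1.10), among them the chemokines Cxcl9 (5.46 ± 0.41) and Cxcl10 (3.92 ± 0.31), the checkpoint ligand Cd274 (2.92 ± 0.24) and the peptide transporter subunit Tap1 (1.10 ± 0.18).

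Taken by sex, all 10 members rose in LPS males, where 11.9% of genes tested rose, and all 10 rose in LPS females, where 4.17% did. The median fold change of the members was 3.28 (log2) in males and 2.66 in females. Without the libraries of April 8 Gbp7 did not pass in females (1.03, adjusted p = 0.0634, edgeR). None of the 10 differed in its response between the sexes after adjustment (edgeR interaction test), against a background of 0.883% of genes. Over all 10538 genes tested, DESeq2 called 601 in this comparison and limma-voom 1330. Both gave 0 members after adjustment, and edgeR had 3 at an unadjusted p under 0.05 (Mx1, Gbp7 and Irgm1). The largest difference was in Mx1, whose log2 fold change was 4.34 ± 0.44 in males and 3.06 ± 0.39 in females (difference 1.28 ± 0.56, adjusted p = 0.187, edgeR). Mx1 had 76.6, 158 and 190.3 CPM in LPS males (lowest, median and highest of 7) and 20.6, 102 and 144 CPM in LPS females (of 6). It had 4.99, 6.05, 8.00, 9.29 and 11.7 CPM in the 5 saline males and 4.63, 8.33 and 31.9 CPM in saline females (lowest, median and highest of 7). The sexes overlapped under both treatments. With sex taken from the characteristics, which differ from the titles for 10 libraries of the series, the Mx1 difference was 0.67 ± 0.61. In every P60 library where the labels differ, Y-linked counts followed the title.

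For Gbp7 the log2 fold change was 2.07 ± 0.28 in males and 1.14 ± 0.26 in females (difference 0.93 ± 0.37, adjusted p = 0.154, edgeR). Gbp7 had 189, 333 and 586 CPM in LPS males and 135.7, 210.0 and 295 CPM in LPS females. It had 66.6, 83.9, 84.3, 84.4 and 136.4 CPM in the saline males and 41.1, 109 and 121 CPM in saline females. Male and female libraries again overlapped under each treatment. Irgm1 rose by 2.31 ± 0.28 in males and 1.54 ± 0.25 in females (difference 0.77 ± 0.37, adjusted p = 0.221, edgeR). With sex from the characteristics the Irgm1 difference was 0.07 ± 0.40, that of Gbp6 was -0.18 (0.70 by title) and that of Iigp1 was -0.29 (0.44 by title). For Irgm2 the difference was 0.02 ± 0.28, and for Gbp2 it was -0.17 ± 0.43, or 0.43 without the libraries of April 10. Neutrophil markers summed to 338, 1168 and 5442 CPM in LPS males and 481, 522 and 776 CPM in LPS females, and 3 of the 4 libraries of April 9 were titled male. None of the 5 neutrophil and 4 monocyte markers tested passed between the sexes under LPS, with median log2 differences of 2.03 and 1.23, higher in males. Their part in the values of the members was not tested.

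**Figure D4:**
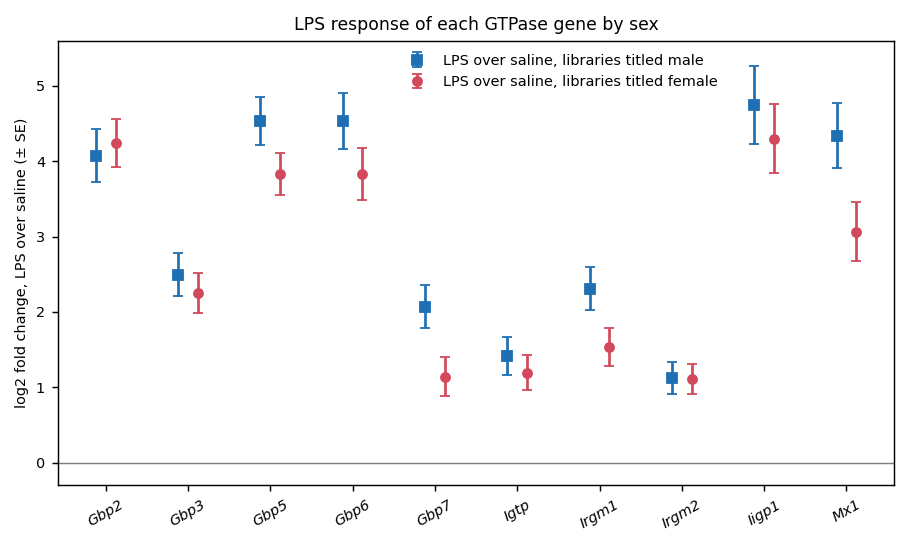
Log2 fold change of each member under LPS over saline with its SE, for libraries titled male (left) and titled female (right) of each pair. The widest gap is in Mx1, at 4.34 in males and 3.06 in females, and Irgm2 is nearly level.

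Male and female libraries were also compared within each group, and no member passed in edgeR at any stage. The backgrounds were 0.0722% of genes at E18, 0.0433% at P4, 0.0433% at P14, 0.0433% at P60 saline and 0.142% under LPS. At an unadjusted p under 0.05 there were 0 members at E18, 0 at P4, 0 at P14, 1 at P60 saline and 2 under LPS. The 1 at P60 saline was Irgm1, with 36.9, 37.5, 42.9, 49.2 and 50.4 CPM in males and 41.6, 63.9 and 97.9 CPM in females (log2 difference -0.63 ± 0.24, adjusted p = 0.388, edgeR). The 2 under LPS were Gbp7 (0.75 ± 0.26) and Mx1 (0.77 ± 0.34), both higher in libraries titled male; with sex from the characteristics Mx1 had a difference of 0.16 ± 0.36. Over all 13853 genes at E18, DESeq2 called 500 and limma-voom 1247. Of the members, DESeq2 gave 0 in every group and limma-voom gave 0 in every group but E18, where it called 2. These were Gbp6, with 0, 0.730, 1.49 and 2.17 CPM in E18 males and 0.427, 4.10 and 6.01 CPM in E18 females, and Irgm2, with 1.19, 3.35, 5.11 and 7.61 CPM in males and 5.13, 5.98 and 9.87 CPM in females. The sexes overlapped for both, on at most 23 counts in a library.

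Over the time course all 10 members rose between the ends. The summed level was 43.8, 100.4 and 185 CPM (lowest, median and highest) at E18, 139, 216 and 239 CPM at P4, 158, 224 and 277 CPM at P14, and 290.1, 399 and 543 CPM at P60 saline. The P60 saline libraries did not overlap those of any earlier stage. At P60 saline against E18, 10 members rose (edgeR), while 31.4% of the 13853 genes tested rose and 34.8% fell. The median log2 fold change of the members was 2.20 against -0.08 over all genes, or -0.26 over all genes with DESeq2's size factors. Microglial markers rose along the same course, 9 of 9, with summed medians of 4311 CPM at E18, 13278 at P4, 22675 at P14 and 32190 at P60 saline, and neuronal markers fell, 5 of 5, with 1681, 123.5, 43.4 and 16.9 CPM. Their part in the rise of the members was not tested.

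The IRG regulators changed most late in the course. Irgm2 had 1.19, 5.13 and 9.87 CPM (lowest, median and highest) at E18, 11.7, 15.02 and 17.999 CPM at P4, 10.8, 19.0 and 26.6 CPM at P14, and 46.1, 54.8 and 84.4 CPM at P60 saline. Igtp had 5.96, 10.2 and 15.6 CPM at E18, 16.0, 16.8 and 26.0 CPM at P4, 10.8, 19.6 and 28.7 CPM at P14, and 37.3, 51.8 and 85.4 CPM at P60 saline. For both genes every P4 library lay above every E18 library and every P60 saline library above every P14 library. Irgm1 had 9.23, 19.0 and 33.1 CPM at E18, 15.6, 24.2 and 32.0 CPM at P4, 18.7, 29.8 and 40.6 CPM at P14, and 36.9, 49.8 and 97.9 CPM at P60 saline, with 10 of 12 P60 saline libraries above the highest P14 library. At P60 saline against E18 the log2 fold change was 3.79 ± 0.24 for Irgm2, the largest of the 10 and 2.61 ± 0.19 for Igtp. The mean of Irgm1 at P60 saline was 2.91 times its mean at E18.

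Among the GBPs the course differed by gene. Gbp7 had 3.65, 14.9 and 35.6 CPM at E18, 47.2, 71.6 and 93.0 CPM at P4, 43.7, 70.04 and 93.2 CPM at P14, and 41.1, 92.6 and 136.4 CPM at P60 saline, so that its largest step was the first one. Gbp5 had 1.46, 3.58 and 19.3 CPM at E18, 10.4, 17.9 and 21.7 CPM at P4, 9.65, 17.9 and 28.7 CPM at P14, and 21.2, 39.2 and 51.6 CPM at P60 saline. Its P4 and P14 medians were level, and 10 of 12 P60 saline libraries exceeded the highest P14 library. Gbp3 had 5.84, 14.9 and 42.9 CPM at E18, 16.6, 32.7 and 41.2 CPM at P4, 17.0, 36.5 and 74.2 CPM at P14, and 25.7, 40.5 and 59.2 CPM at P60 saline. No P60 saline library exceeded the highest P14 library for Gbp3. Gbp2 had 2.19, 10.1 and 16.3 CPM at E18, 8.31, 15.7 and 21.5 CPM at P4, 12.05, 17.6 and 26.6 CPM at P14, and 18.5, 24.7 and 42.4 CPM at P60 saline, with overlap between neighbouring stages.

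Gbp6, Iigp1 and Mx1 stayed low through P14. Their medians at E18, P4, P14 and P60 saline were 1.49, 3.79, 2.06 and 5.31 CPM for Gbp6, 2.56, 3.82, 3.41 and 9.50 CPM for Iigp1, and 3.58, 5.44, 3.42 and 8.27 CPM for Mx1. One E18 library and one P14 library had no Gbp6 counts. For Iigp1, 11 of 12 P60 saline libraries exceeded the highest P14 library (6.71 CPM), against 4 of 12 for Mx1 (10.3 CPM) and 1 of 12 for Gbp6 (11.02 CPM). Per kilobase, Irgm1 (8.41 CPM per kb), Gbp3 (5.65) and Igtp (5.06) had the highest medians at E18. At P4 these were Gbp7 (12.8), Gbp3 (12.4) and Irgm1 (10.7), and at P14 they were Gbp3 (13.9), Irgm1 (13.2) and Gbp7 (12.5). Neighbours in these orders overlapped, except that Irgm2 stood clear of the next gene at P4 and at P14.

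**Figure D5:**
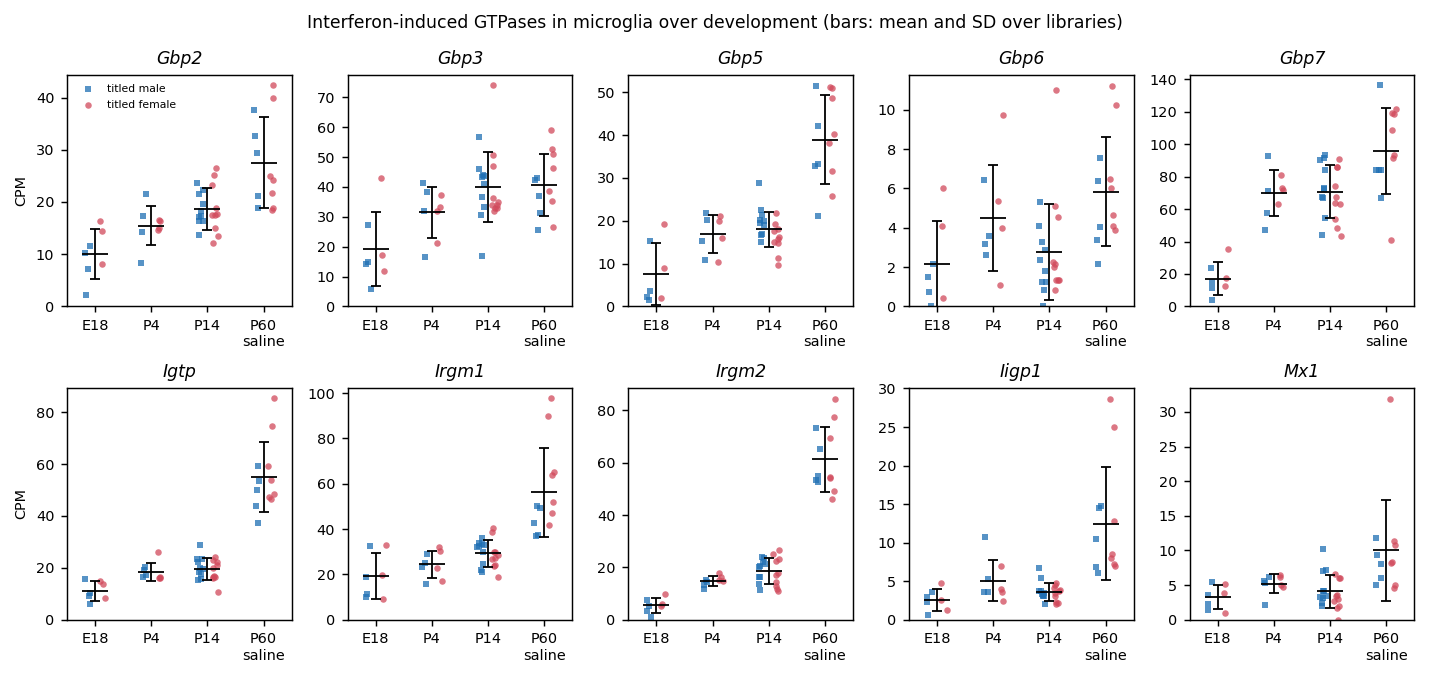
CPM of each member in every library at E18, P4, P14 and P60 saline; blue squares are libraries titled male, red circles libraries titled female, and bars show the mean and SD. Irgm2 and Igtp at P60 saline lie above all earlier libraries, at no less than 46.1 and 37.3 CPM, whereas Gbp3 at P60 saline lies within the P14 range.

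The first step raised 8 members and lowered none at P4 against E18 (edgeR), with 25.5% of all genes rising and 22.7% falling. The median of the members was 0.89 against 0.03 over all genes, or -0.10 with DESeq2's size factors. Gbp7 rose by 2.14 ± 0.24 (adjusted p = 1.79e-09), Irgm2 by 1.49 ± 0.24 (2.47e-06), Gbp5 by 1.23 ± 0.29 and Igtp by 0.79 ± 0.20. Gbp3 rose by 0.80 ± 0.23, Gbp2 by 0.73 ± 0.21, Iigp1 by 0.98 ± 0.36 and Gbp6 by 1.17 ± 0.49 (adjusted p = 0.0432, edgeR). Irgm1 (0.40 ± 0.22) and Mx1 (0.74 ± 0.40) did not pass. The call of Gbp6 was lost in 16 of 23 alternative settings, and without female E18 replicate 3 only 4 members passed, with Gbp2, Gbp3, Gbp6 and Iigp1 lost. Without the male-titled E18 library that lacked Y-linked counts 7 members passed, and without the 3 libraries with over 10% Ttr 6 passed, with Gbp2 and Gbp3 lost. In the same step neutrophil markers rose, 7 of 7, to a summed median of 1303 CPM at P4 (range 276 to 8562), against 273 CPM at E18 (175 to 1481), and red blood cell markers fell, 3 of 3, to 87.1 CPM at P4, against 499 CPM at E18. The part of these cells in the result was not tested.

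At P14 against P4, 4 members rose and none fell (edgeR), with 20.6% of all genes rising and 20.8% falling. The median of the members was 0.37, below those of the other 2 steps, although Gbp3 changed more here than in the last step and Irgm1 more than in the first. With DESeq2's size factors the split over all genes became 2184 rising and 3634 falling, against 2856 and 2888, and the median over all genes became -0.12, against -0.01. Gbp3 rose by 0.61 ± 0.18 (adjusted p = 0.00575), Irgm2 by 0.59 ± 0.18, Irgm1 by 0.57 ± 0.18 and Gbp2 by 0.53 ± 0.16. For all 10 members the P14 and P4 ranges overlapped. Only Gbp3 passed with the replicate number as a block, and 2 passed without male P4 replicate 3, with Gbp2 and Irgm1 lost. Igtp (0.37 ± 0.16), Gbp5 (0.38 ± 0.22) and Gbp7 (0.31 ± 0.18) were higher without passing, and Gbp6 (-0.57 ± 0.38), Iigp1 (-0.19 ± 0.28) and Mx1 (-0.05 ± 0.31) were lower without passing. Neutrophil markers fell in this step, 7 of 7, to a summed median of 220.4 CPM at P14, against 1303 CPM at P4. Their part in the result was not tested.

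The last step, P60 saline against P14, raised 9 members and lowered none (edgeR), with 18.5% of all genes rising and 25.7% falling. The median of the members was 1.11 against -0.06 over all genes. Iigp1 rose by 1.72 ± 0.24, Irgm2 by 1.71 ± 0.14 (adjusted p = 7.34e-13), Igtp by 1.45 ± 0.13 and Irgm1 by 0.83 ± 0.15. Mx1 rose by 1.19 ± 0.27, Gbp6 by 1.14 ± 0.34, Gbp5 by 1.09 ± 0.19, Gbp2 by 0.56 ± 0.14 and Gbp7 by 0.41 ± 0.16 (adjusted p = 0.0284, edgeR). Gbp3 had a difference of 0.00 ± 0.16. The share of the 3 regulators in the members' summed CPM had a median of 32.4% at E18, 27.3% at P4, 29.5% at P14 and 42.4% at P60 saline. The Gbp7 call was lost without male P60 saline replicate 5 (0.32). In this step 6 of 9 microglial markers rose, and 4 of 7 neutrophil, 3 of 6 endothelial, 3 of 4 border macrophage, 3 of 5 astrocyte and 3 of 5 neuronal markers fell. Choroid plexus markers rose in 2 of 4, and the summed neutrophil level was 103 CPM (median) at P60 saline, against 220.4 CPM at P14. The part of these cells in the result was not tested. The P60 mice were given saline and the P14 mice were untreated, so age and saline cannot be told apart here.

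The pathway lists were counted in the same comparisons, with 31.4% of all genes rising at P60 saline against E18 and 25.5% at P4 against E18. At P60 saline against E18, all 8 other GTPases tested rose (median 2.94), including Gbp9 (1.87 ± 0.23) and Mx2 (2.28 ± 0.28), and 6 of the 8 rose at P4 against E18. Tgtp1 and Tgtp2 (6.14 ± 0.64 and 6.15 ± 0.63) are near-identical copies whose counts cannot be told apart, although both are counted among the 8. Of the 14 receptors, kinases and factors, 10 rose over the whole course, with Irf8, a lineage factor of microglia, at 3.12 ± 0.24, and the receptor chains Ifngr1 at 2.81 ± 0.18 and Ifnar2 at 1.67 ± 0.11. At P4 against E18, 12 of these 14 rose. Of the inflammasome and autophagy genes 9 of 12 rose over the whole course, including Aim2 (2.60 ± 0.21) and Nlrp3 (2.32 ± 0.30). Of 6 feedback inhibitors 4 rose over the course (Socs3 by 2.34 ± 0.24), and Isg15 fell at P4 against E18 (-1.08 ± 0.35). Of 8 interferon-gamma type targets tested, 6 rose, among them the Fc receptor Fcgr1 (3.15 ± 0.22) and Cd274 (1.96 ± 0.30).

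Step by step, the other GTPases rose in 6 of 8 genes tested at P4 against E18, 4 of 8 at P14 against P4 and 5 of 8 at P60 saline against P14, and none fell in any step. Of the 14 receptors, kinases and factors, 6 rose and none fell at P14 against P4, while 5 rose and 4 fell at P60 saline against P14. Over all genes 25.5% rose and 22.7% fell in the first step, 20.6% and 20.8% in the second, and 18.5% and 25.7% in the last, so that several of these counts, such as 4 of 14 falling, lay near the background. The feedback inhibitors had 4 of 6 higher and 1 lower in the first step, 4 higher and none lower in the second, and 2 higher and 1 lower in the last. The inflammasome and autophagy genes had 7 of 12 higher and 1 lower in the first step, 8 higher and none lower in the second, and 3 higher and 2 lower in the last. The interferon-gamma type targets had 5 of 8 higher and none lower, then 1 higher and 1 lower, then 4 higher and 1 lower. No gene of these lists differed between male and female libraries at any stage, or in its response to LPS by sex (edgeR, adjusted p under 0.05).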

How the data were processed

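Raw read counts per RefSeq transcript for 60 libraries were deposited by the authors in 1 table. Per the submitters' processing notes, CASAVA 1.8.2, edgeR and mm9 were used; which aligner and counter were used is not given in the sources here. Of 28644 rows, the row marked Best was taken for each gene (21988 genes) and the row with most counts for 881 others, giving 22869 genes, with CPM on their total. The 10 members and all lists were chosen with earlier results of these data known.

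Genes were filtered with filterByExpr, scaled by TMM and tested with the robust two-sided quasi-likelihood F test of edgeR 4.0.16 in R 4.3.3, with Benjamini-Hochberg adjustment at 0.05 over all genes tested. The time course fit held 47 libraries in 8 groups of sex by stage, the P60 fit 25 libraries in 4 groups of sex by treatment, and contrasts averaged the sexes equally. Genes named were all 10 members and, per list, up to 4 genes of smallest p whose mean reached 10 CPM on either side of the comparison; the receptor chains under LPS, the interferon ligands and Ccr2 fall outside this rule and were chosen after their values were seen. Alternatives were DESeq2 1.42.0, its size factors, limma 3.58.1 (voom with sample weights), no filter, summed transcript rows, sex from the characteristics, a replicate block, and libraries or dates left out. The fits were tested on simulated data. No 2 libraries of a group were copies: over 178 pairs the chi-square per gene was 1.96 to 101.

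Titles carry replicate numbers. The numbers paired the sexes at P4, where 4 of 4 pairs shared a date and their deviations correlated at 0.352 to 0.441. The main fits held no term for these pairs. Their p-values for comparisons with P4 or within P4 therefore treat the 8 P4 libraries as independent, and only the replicate block takes the pairs into account. Female libraries of P4 and E18 with the same number correlated at 0.119 to 0.408 (3 pairs). They are of different stages and 0 of these pairs shared a date, so they were not read as pairs. The numbers were not read as pairs in the other groups either. At P14, 10 of 10 male and female pairs shared a date, with correlations of -0.177 to 0.436.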

Additional observations from a re-analysis of the deposited data

Results flagged for a closer look

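In 90 sets of 4 to 10 libraries (10 members in 9 groups of sex by stage or treatment), 8 single libraries stood apart by Dixon's test, and chance alone flags about 1 in 20. Among the GBPs, Gbp3 was highest in female P14 replicate 6 at 74.2 CPM, with the next at 50.7 CPM. Gbp5 was highest in male E18 replicate 2 at 15.3 CPM, with the next at 3.58 CPM. Gbp6 was highest in female P14 replicate 7 at 11.02 CPM (next 5.11) and in female LPS replicate 6 at 162.7 CPM (next 82.0). Gbp7 was lowest in female P60 saline replicate 6 at 41.1 CPM, with the next at 91.8 CPM, and that library carried 11.99% of its counts in Ttr. Gbp7 was highest in male P60 saline replicate 5 at 136.4 CPM, with the next at 84.4 CPM. Igtp was highest in female P4 replicate 4 at 26.0 CPM, with the next at 16.5 CPM. Mx1 was highest in female P60 saline replicate 5 at 31.9 CPM, with the next at 11.3 CPM, and that library was the highest saline library for 4 members.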

How the results depend on the processing

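Of 1788 values of the 61 called member results under alternative settings, 1755 kept direction and call and 33 lost the call, and no called value reversed. The lower depth of the LPS libraries and the low counts of Gbp6, Iigp1 and Mx1 before P60 limit the precision of their values. All 10 calls for LPS against saline over both sexes held under every alternative. With the replicate block, P14 against P4 had 1 called member, with Gbp2 at 0.42, Irgm1 at 0.35 and Irgm2 at 0.34, and the block changed no other count of called members. Voom with sample weights called 2 members for male against female at E18 (Gbp6 -3.20, Irgm2 -1.95), where it called 1247 of all 13853 genes. With 1 library left out, the called members numbered 4 to 9 for P4 against E18, 2 to 5 for P14 against P4, 8 to 9 for P60 saline against P14 and 0 to 1 for male against female at E18 (Gbp5, -1.82, without male replicate 2). Without female E18 replicate 3, Gbp2 was 0.52, Gbp3 0.55, Gbp6 1.16 and Iigp1 0.88 for P4 against E18, and Irgm1 passed at 0.58 without female replicate 1. Igtp passed for P14 against P4 by voom (0.36) and without female P4 replicate 4 (0.42). Gbp7 lost its call for P60 saline against P14 with sex from the characteristics (0.34), and in LPS females without April 8 (1.03). The causes were not tested.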
